A study of Homo sapiens with 8 samples.

Results

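The mitochondrial ribosomal protein genes were taken as all protein-coding genes whose current symbol begins with MRPL (large subunit) or MRPS (small subunit) followed by a number. RefSeq lists 77 such genes, of which 76 had a named probe on the array. A gene was tested where a probe was detected (detection p under 0.05) on at least 2 of the 8 arrays, which kept 75 genes out of 10856 tested in all. They are 48 large-subunit and 27 small-subunit genes by symbol, and 74 of them were detected on all 8 arrays. MRPS25 was not analysed here. MRPS36 is now named KGD4 and is therefore no member.

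SW620, an established human colorectal cancer line, was grown in 4 groups, and each group was measured on 2 Illumina bead arrays of 1 colour. Untreated cells were incubated for 24 h, and the Y15 cells received 4 uM Y15 for 24 h, a compound that inhibits focal adhesion kinase, which PTK2 encodes. Another group was transfected with an siRNA that silences HAS3, a hyaluronan synthase, and the last with a scrambled control sequence. All groups are the same single cell line, and the labels do not tell whether the arrays of a group hold separate cultures, so a p-value here rests on array-to-array spread that may be technical only. A level below is a normalised log2 intensity of 1 probe, and a change is a difference of such levels between 2 groups of n = 2 arrays. Levels of different probes cannot be compared with each other. Total RNA was labelled, so a change in RNA per cell cannot be told apart from a change in the share of a transcript.

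Mean probe intensity was 352.1 to 524.7 on 7 arrays and 234.1 on the second Y15 array. Between 12578 and 13916 of 24526 probes were detected on each array. Of 12 colon epithelial markers 9 were tested, among them KRT8 at 12.35 to 13.15, while the tested markers of other cell types numbered 3 of 7 for fibroblasts, 2 of 7 for leukocytes and 2 of 5 for endothelium. HAS3 itself read 10.49 and 10.16 on the scrambled arrays and 10.05 and 9.73 on the siRNA arrays, a change of -0.43 that missed the threshold after adjustment (limma, adjusted p = 0.151 over all genes). PTK2 had a change of -0.11 with Y15 (adjusted p = 0.586).

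Mitochondria carry their own ribosome, which makes the few inner-membrane proteins that mitochondrial DNA encodes, all of them parts of the oxidative phosphorylation machinery. Its RNA is transcribed inside the organelle, but every one of its proteins is encoded in the nucleus, made in the cytosol and imported. Part of these proteins have a counterpart in bacterial ribosomes, and the rest are specific to mitochondria.

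With Y15 the mitochondrial ribosomal protein genes moved in both directions after quantile normalisation. Of the 75 genes 9 rose, 14 fell and 52 did not pass the threshold (limma, Benjamini-Hochberg adjusted p under 0.05 over all genes). The 23 calls are 30.7% of the members, against 41.8% of all 10856 genes. By direction 12% rose and 18.7% fell, against 18.8% higher and 23% lower over all genes. The median change of the 75 genes was 0.0001 and that of all genes tested was -0.0299. The changes were spread less widely than those of all genes, with an SD across genes of 0.428 against 0.630. More than 2-fold changes were found in 2 of the 75 members and in 1062 of the 10856 genes. Both Y15 arrays lay on one side of both untreated arrays in 55 members, or 73.3%, against 67.8% of all genes. None of these differences between the members and the rest was tested. With arrays centred on their median instead, 0 rose and 24 fell, beside 501 and 3429 of all genes, as given further on.

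**Figure D1:**
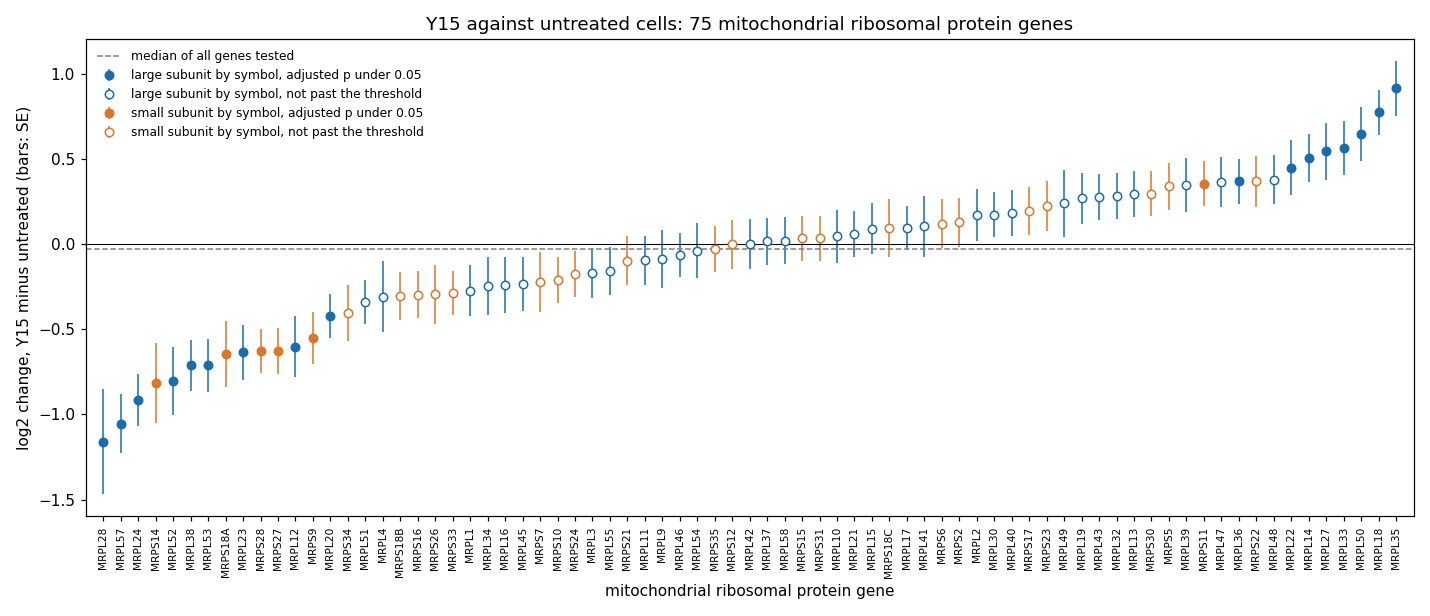
Change of each of the 75 genes with Y15 against untreated cells on the log2 scale, ordered by size; points are fitted changes from 2 arrays per group, bars are SE, filled points passed the adjusted threshold, and colour gives the subunit by symbol. The changes run from -1.16 for MRPL28 to 0.91 for MRPL35, and the filled points lie at both ends, 14 low and 9 high after quantile normalisation.

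After quantile normalisation 8 of the 9 rises were in the large subunit. MRPL35 (bL35m, a small protein with a bacterial counterpart) read 9.17 and 9.46 on the untreated arrays and 10.15 and 10.31 with Y15, a rise of 0.91 ± 0.16 (SE, 1.88-fold, adjusted p = 0.00096). Both Y15 arrays lay above both untreated arrays. The other 2 kept MRPL35 probes read changes of -0.08 and 0.07 with Y15, and neither passed, so the rise was seen by 1 of 3 probes. MRPL18 (uL18m, part of the central protuberance at the top of the large subunit) read 11.55 and 11.66 untreated and 12.35 and 12.41 with Y15, a rise of 0.77 ± 0.13 (SE, 1.71-fold, adjusted p = 0.00066). Its 2 Y15 arrays were the highest of all 8. MRPL50 (mL50, specific to mitochondria) read 9.51 and 9.95 untreated and 10.41 and 10.34 with Y15, a rise of 0.65 ± 0.16 (SE, adjusted p = 0.00682). MRPL33 (bL33m) read 10.63 and 10.99 untreated and 11.24 and 11.51 with Y15, a rise of 0.56 ± 0.16 (SE, adjusted p = 0.0124), and its second probe rose as well, by 0.65. MRPL27 (bL27m, whose bacterial counterpart reaches the peptidyl transferase centre) read 9.12 and 8.81 untreated and 9.32 and 9.69 with Y15 (a rise of 0.54 ± 0.17, SE, adjusted p = 0.0216).

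Smaller rises were found for MRPL14, MRPL22, MRPL36 and MRPS11. MRPL14 (uL14m, on the face that meets the small subunit and the binding site of the assembly factor MALSU1) read 10.17 and 10.06 untreated and 10.75 and 10.49 with Y15, a rise of 0.50 (adjusted p = 0.013). MRPL22 (uL22m, which lines the exit tunnel of the nascent chain) read 10.47 and 10.59 untreated and 10.77 and 11.20 with Y15, a rise of 0.45 (adjusted p = 0.042). MRPL36 (bL36m) read 11.43 and 11.48 untreated and 11.76 and 11.89 with Y15, a rise of 0.37 (adjusted p = 0.0427). MRPS11 (uS11m, on the platform of the small subunit) was the one small-subunit gene called higher, at 10.20 and 10.03 untreated and 10.46 and 10.48 with Y15, a rise of 0.35 (adjusted p = 0.0493, and 0.0501 with the array number as a replicate block). In each of these 4 genes both Y15 arrays were above both untreated arrays.

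Among the falls, MRPL28 (bL28m) had the largest change, with levels of 9.36 and 8.55 untreated and 8.09 and 7.50 with Y15, 2.24-fold lower (log2 change -1.16 ± 0.31, SE, adjusted p = 0.0101). Its arrays also differed widely within groups. MRPL57 (mL63, specific to mitochondria) read 7.82 and 7.84 untreated and 7.0 and 6.55 with Y15, 2.08-fold lower (log2 change -1.06 ± 0.17, SE, adjusted p = 0.000546). MRPL24 (uL24m, next to the exit tunnel) read 10.56 and 10.55 untreated and 9.58 and 9.71 with Y15, 1.88-fold lower (log2 change -0.91 ± 0.15, SE, adjusted p = 0.000549), and its second probe also passed, at -0.50. For MRPL24 the Y15 arrays were the lowest of all 8 and the other 6 lay between 10.26 and 10.76.

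The large-subunit falls continued with proteins of several positions. MRPL52 (mL52) read 8.46 and 8.75 untreated and 8.15 and 7.45 with Y15 (-0.80 ± 0.20, SE, adjusted p = 0.00709). MRPL38 (mL38, a mitochondria-specific protein of the central protuberance) read 10.71 and 10.68 untreated and 10.16 and 9.81 with Y15 (-0.71 ± 0.15, SE, adjusted p = 0.00272). MRPL53 (mL53) read 9.38 and 9.12 untreated and 8.70 and 8.37 with Y15 (-0.71 ± 0.16, SE, adjusted p = 0.00344). The groups did not overlap in any of the 3. MRPL23 (uL23m, at the mouth of the exit tunnel) read 11.96 and 11.55 untreated and 11.26 and 10.99 with Y15 (-0.64, adjusted p = 0.00812). MRPL20 (bL20m) read 9.69 on both untreated arrays and 9.20 and 9.33 with Y15 (-0.42, adjusted p = 0.0217). MRPL12 (bL12m, the stalk protein that recruits translation factors) read 11.94 and 11.52 untreated and 11.34 and 10.92 with Y15 (-0.60, adjusted p = 0.0178). The stalk-base proteins MRPL10 and MRPL11 had changes of 0.04 and -0.10 by the probe used, and neither passed, while a further probe of each did, as described with the probes.

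Of the genes with an MRPS symbol 5 fell, among them MRPS18A, a protein of the large subunit. MRPS14 (uS14m, in the head of the subunit) read 6.64 and 7.16 untreated and 5.76 and 6.40 with Y15 (-0.82 ± 0.23, SE, adjusted p = 0.015). MRPS27 (mS27, a pentatricopeptide repeat protein) read 10.88 and 10.85 untreated and 10.34 and 10.13 with Y15 (-0.63 ± 0.13, SE, adjusted p = 0.00295). MRPS28 read 10.02 and 10.10 untreated and 9.45 and 9.41 with Y15 (-0.63 ± 0.13, SE, adjusted p = 0.00221). For MRPS27 and MRPS28 the Y15 arrays were the lowest of all 8. MRPS9 (uS9m) read 10.67 and 10.50 untreated and 9.91 and 10.15 with Y15 (-0.55, adjusted p = 0.0124). MRPS18A read 8.67 and 8.52 untreated and 7.74 and 8.16 with Y15 (-0.64, adjusted p = 0.0193).

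MRPS18A is one of 3 paralogs of a single bacterial protein, and despite its symbol it sits in the large subunit as mL66, as does MRPS30 (mL65). MRPS18B (mS40) had a change of -0.30 with Y15 (adjusted p = 0.0961). MRPS18C (bS18m) was the member just inside the detection rule: it was detected on 1 untreated and 1 Y15 array, its levels were 4.52 to 5.05, and no fold is given. MRPL44, just outside the rule, was detected on 1 array, with levels of 4.46 to 4.87. MRPS30 read 12.28 and 12.07 untreated and 12.44 and 12.51 with Y15 and did not pass (0.30, adjusted p = 0.0953). Members with roles outside the core fold also did not pass: MRPL58, a peptidyl-tRNA hydrolase that rescues stalled ribosomes, had a change of 0.02 (adjusted p = 0.919), and MRPL45, which holds the ribosome at the inner membrane, one of -0.24 (adjusted p = 0.251).

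**Figure D2:**
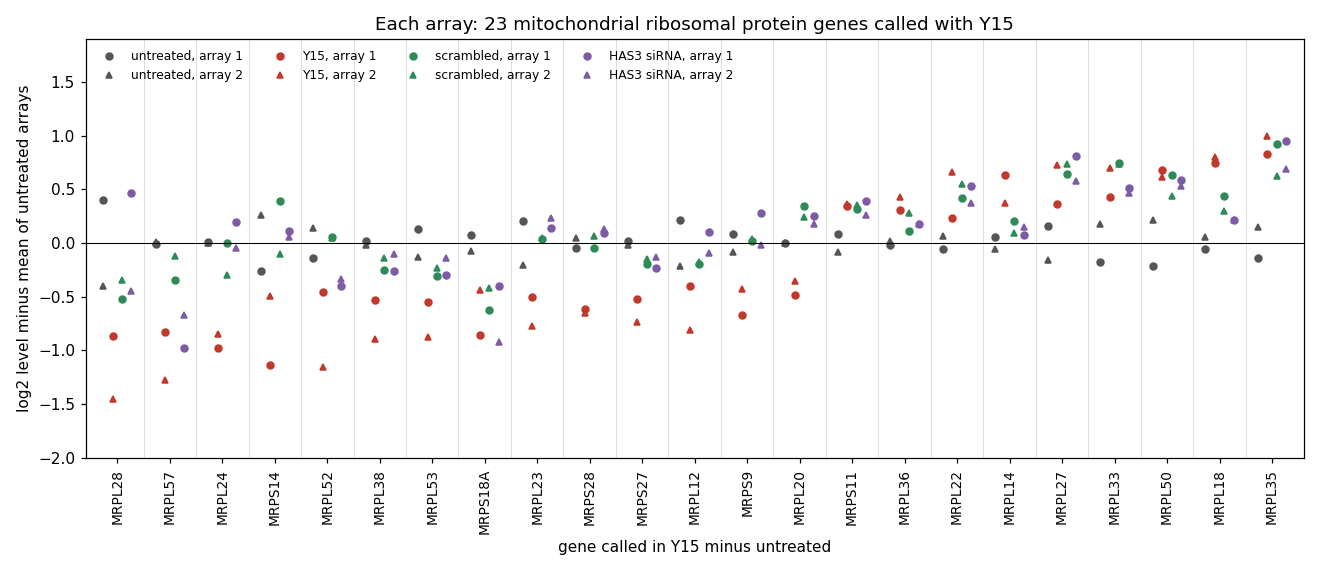
Level of the 23 genes called with Y15 on each of the 8 arrays, as log2 difference from the mean of the 2 untreated arrays; colour gives the group and shape the array number. The red Y15 points lie apart from the grey untreated points in each gene, and in MRPL27, MRPL33, MRPL35 and MRPL50 the green scrambled and purple HAS3 siRNA points are raised as well. In MRPL22 and MRPS11 the scrambled and HAS3 siRNA means also lie close to the Y15 mean.

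The Y15 calls depended on single arrays. Fewer of all genes were called as well, whichever untreated or Y15 array was left out. Without the first untreated array 4 members rose and 8 fell, without the second untreated array 5 and 12, without the first Y15 array 9 and 11, and without the second Y15 array, the one of low intensity, 4 and 10. Leaving out each of these arrays in turn kept 8 of the 23 calls: the rises of MRPL18 and MRPL35 and the falls of MRPL24, MRPL38, MRPL53, MRPL57, MRPS27 and MRPS28. The other 15 each lost the threshold without at least 1 array, with a highest adjusted p from 0.0645 for MRPL52 to 0.295 for MRPL22. Over these fits the change of MRPL28 ranged from -1.56 to -0.76, that of MRPL52 from -1.16 to -0.45, that of MRPS14 from -1.13 to -0.50 and that of MRPL12 from -0.81 to -0.39. Among the rises, MRPL22 ranged from 0.23 to 0.66, MRPL27 from 0.36 to 0.73 and MRPL50 from 0.43 to 0.86.

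The split between rises and falls depended on the scaling. With cyclic loess, another scaling between arrays, 11 members rose and 14 fell, and the median of all genes tested was -0.01. When each array was centred on its median over all probes instead of quantile normalised, 0 members rose and 24 fell (1 and 32 at an unadjusted p under 0.05), and the median of all genes tested shifted to -0.31. When arrays were centred on the median of the detected probes, an alternative chosen after the data were seen, 12 rose and 11 fell and the median of all genes was 0.20. Of all 10856 genes, 2126 rose and 2354 fell with cyclic loess. Centred on all probes 501 rose and 3429 fell, and on detected probes 2901 and 1635. Of all genes called with Y15, 45.0% were higher after quantile normalisation and 47.5% after cyclic loess. The share was 12.7% after centring on all probes and 64.0% after centring on detected probes. The changes above are therefore relative to a common distribution of levels on all arrays. The genes MRPL24, MRPL38, MRPL53, MRPL57, MRPS27 and MRPS28 were the 6 called lower under quantile normalisation and in every alternative run.

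By symbol, the large subunit had 8 rises and 9 falls among 48 genes and the small subunit 1 rise and 5 falls among 27, beside 18.8% higher and 23% lower over all genes. Centred on all probes these counts were 0 and 14, and 0 and 10, and centred on detected probes 9 and 6, and 3 and 5. Of all 10856 genes, 501 rose and 3429 fell with the first centring and 2901 and 1635 with the second. The median change with Y15 was 0.03 in the large subunit and -0.10 in the small, a difference of 0.13. This is a description, since genes are not replicates, and the difference ranged from 0.05 to 0.19 when single arrays were left out. With MRPS30 and MRPS18A counted in the large subunit, the counts were 8 rises and 10 falls among 50 large-subunit genes and 1 rise and 4 falls among 25 small-subunit genes, with the same medians. Genes with a bacterial counterpart had 8 rises and 7 falls among 45 after quantile normalisation. Mitochondria-specific genes had 1 rise, MRPL50, and 6 falls among 29. The classes follow the first letter of the unified protein name. MRPS18A (mL66) and MRPS18B (mS40) therefore count as mitochondria-specific here, although they are paralogs of a bacterial protein, as described above. MRPS28, which fell, was placed in neither class here. By symbol, the median change was 0.07 in 30 large-subunit and -0.0011 in 15 small-subunit genes with a bacterial counterpart, and 0.0085 in 18 large-subunit and -0.29 in 11 small-subunit genes specific to mitochondria.

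**Figure D3:**
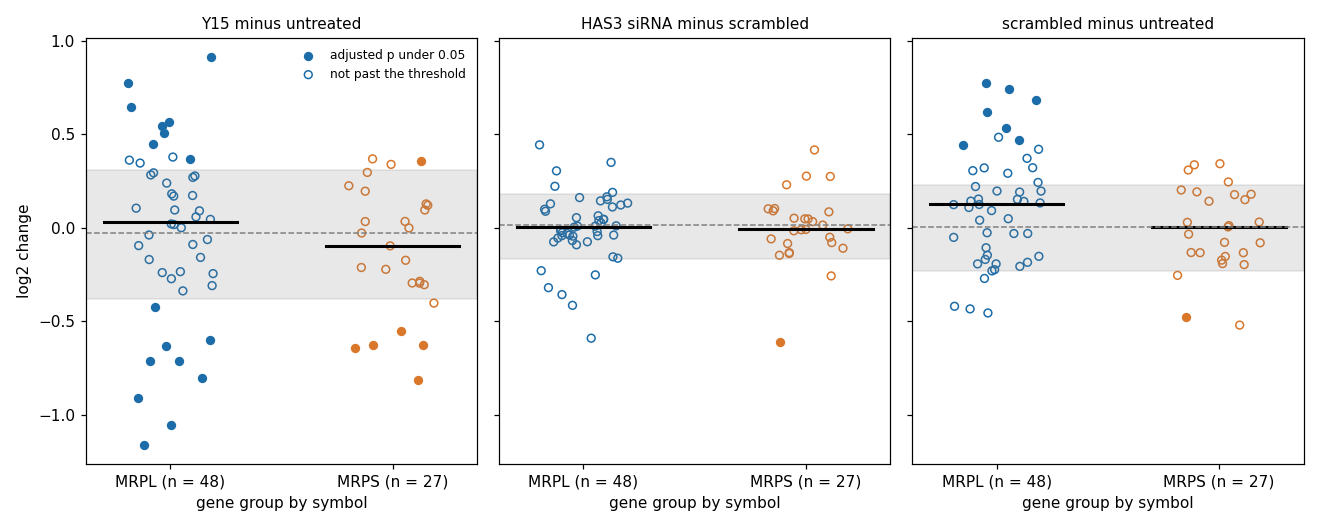
Change of each gene on the log2 scale in 3 comparisons, split by symbol into 48 MRPL and 27 MRPS genes; filled points passed the adjusted threshold, black lines are the medians of the split, the dashed line is the median of all 10856 genes and the grey band their interquartile range. Points fan out widest with Y15, the MRPL median lies above the MRPS median in the left and right panels, and 1 point is filled in the HAS3 siRNA panel.

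Nearly all of these genes stayed below the threshold with the HAS3 siRNA, and HAS3 itself did not pass, as given above. Against the scrambled control 0 members rose and 1 fell by limma, 1.33% of 75, against 8.22% of all genes (3.47% higher and 4.74% lower). At an unadjusted p under 0.05, 1 member was higher and 4 were lower. The changes ran from -0.61 to 0.44, with a median of 0.0032 and an SD across genes of 0.187, against 0.360 for all genes. The gene that fell was MRPS31 (mS31, specific to mitochondria), which read 9.59 and 9.50 on the scrambled arrays and 8.98 and 8.89 on the siRNA arrays, 1.53-fold lower (log2 change -0.61 ± 0.13, SE, adjusted p = 0.0132). Its untreated and Y15 arrays read 9.62 to 9.77, so the 2 siRNA arrays were the lowest of the 8. Leaving out any 1 of the 4 arrays compared ended this call, with adjusted p up to 0.115 and changes of -0.66 to -0.57, and under both median centrings. MRPL57 read 7.49 and 7.71 scrambled and 6.86 and 7.16 with the siRNA (-0.59, adjusted p = 0.0597), just outside the threshold. Groups did not overlap in 30 members, or 40.0%, against 57.6% of all genes.

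Cells given the scrambled sequence also differed from untreated cells. Of the members 7 were higher and 1 was lower, 10.7% of 75, against 19.5% of all genes (8.84% higher and 10.7% lower). The 7 were all large-subunit genes, and with arrays centred on the median of all probes 0 members were higher and 1 lower. Of all 10856 genes, 123 were higher and 932 lower with that centring. The median change was 0.09, against 0.0013 for all genes, with 0.13 in the large subunit and 0.0044 in the small. MRPL19 (bL19m, at a bridge between the subunits) read 7.49 and 7.76 untreated and 8.38 and 8.11 scrambled, a rise of 0.62 ± 0.15 (SE, adjusted p = 0.0135). MRPL40 (mL40) read 9.67 and 9.83 untreated and 10.20 and 10.25 scrambled, a rise of 0.47 (adjusted p = 0.03). MRPL13 (uL13m) read 9.98 and 10.23 untreated and 10.60 and 10.50 scrambled, a rise of 0.44 (adjusted p = 0.0418). MRPS10 (uS10m, in the head of the small subunit) fell from 10.84 and 10.77 to 10.32 and 10.34 (-0.48, adjusted p = 0.0279). In each of the 8 the groups did not overlap, as was the case for 62.9% of all genes. All 8 calls were lost when at least 1 of the 4 arrays was left out, and without the first scrambled array 0 members passed.

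The other 4 of the 7 were MRPL35, MRPL33, MRPL27 and MRPL50, described above with Y15, and both comparisons use the same 2 untreated arrays. MRPL35 read 10.24 and 9.94 on the scrambled arrays, 0.77 above untreated cells (adjusted p = 0.00729), beside 0.91 with Y15. Its further probes read 0.23 and 0.32 between scrambled and untreated cells, and neither passed, nor did the mean of its probes. MRPL33 read 11.56 and 11.54, 0.74 above (adjusted p = 0.00706), beside 0.56. MRPL27 read 9.60 and 9.70, 0.69 above (adjusted p = 0.0148), beside 0.54. MRPL50 read 10.36 and 10.16, 0.53 above (adjusted p = 0.0376), beside 0.65. In all 4 the untreated arrays were the lowest 2 of the 8, and the HAS3 siRNA arrays read 10.26 and 10.01 for MRPL35, 11.32 and 11.27 for MRPL33, 9.77 and 9.54 for MRPL27 and 10.32 and 10.26 for MRPL50. Without the first untreated array MRPL50, MRPL33 and MRPL35 lost the scrambled call. MRPL27 lost it without the second. MRPL22 and MRPS11, also called higher with Y15, did not pass between scrambled and untreated cells by the probe used. Their changes there were 0.48 and 0.34, beside 0.45 and 0.35 with Y15. MRPL18, by contrast, read 12.05 and 11.91 on the scrambled arrays, between the untreated and the Y15 arrays (0.37, adjusted p = 0.0669).

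**Figure D4:**
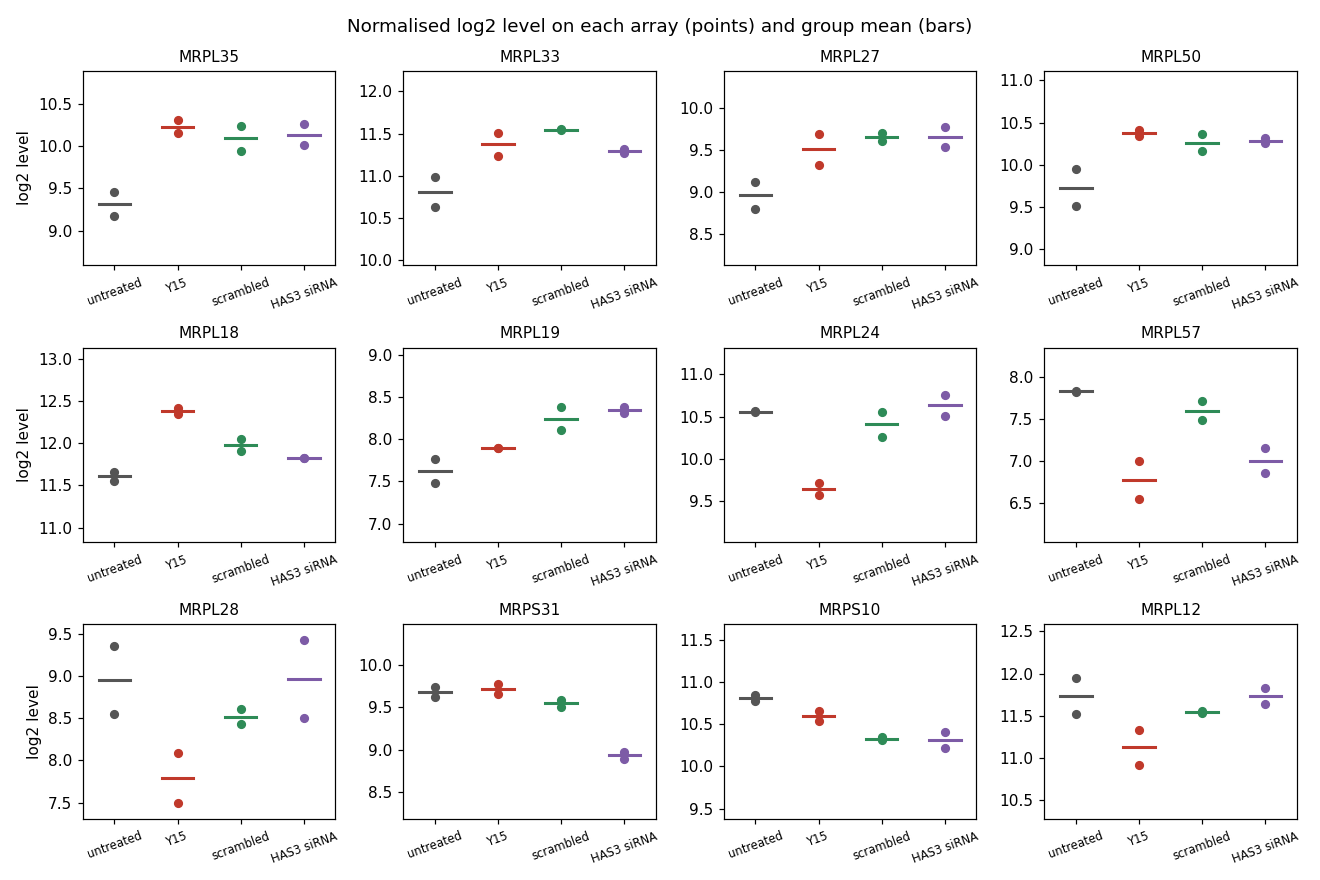
Normalised log2 level of 12 members on each array (points) with the group mean (bars), in each of the 4 groups; each panel has its own axis because levels of different probes cannot be compared. In MRPL35, MRPL33, MRPL27 and MRPL50 the 2 untreated points are the lowest, in MRPL24 and MRPL28 the Y15 points are, and in MRPS31 the HAS3 siRNA points are.

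Whether the Y15 change differed from the HAS3 siRNA change was tested as the difference of the 2 changes, which share no array. It passed in 16 members, or 21.3%, of which 6 were higher with Y15 and 10 lower, against 30.8% of all genes (13.8% higher and 17% lower). With centring on all probes 0 were higher and 22 lower, and centred on detected probes 9 and 3. Of all 10856 genes, 339 were higher and 3035 lower with the first centring and 2380 and 1036 with the second. MRPL18 differed by 0.93 ± 0.19 (SE, adjusted p = 0.00309), from a change of 0.77 with Y15 and -0.16 with the siRNA. MRPL24 differed by -1.14 ± 0.21 (SE, adjusted p = 0.00215), from -0.91 and 0.22. These are the 2 genes whose difference passed whichever single array was left out. The other higher differences were 0.87 for MRPL35, 0.82 for MRPL33, 0.74 for MRPL48, 0.65 for MRPS31 and 0.60 for MRPL32. The further MRPL35 probes read differences of -0.52 and -0.02, and neither passed. With the mean of its probes the MRPL35 difference did not pass either. MRPL48 (mL48) and MRPL32 (bL32m, which is cut to its mature form by an inner-membrane protease) passed in neither comparison alone. The lower differences ran from -1.60 for MRPL28 to -0.62 for MRPS27 and included MRPL12, MRPL23, MRPL38, MRPL53, MRPS9, MRPS28 and MRPS34. Without the first scrambled array 2 members were higher and 1 lower, and without the first untreated array 1 and 2.

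Probes of the same gene did not always agree. Of the 75 genes 16 had more than 1 kept probe, with 23 further probes in all. With Y15, 13 of these 23 moved in the direction of the probe used, 18 with HAS3 siRNA and 16 with the scrambled sequence, and none passed in the direction opposite to a called gene. In 8 genes that did not pass by the probe used, another probe did pass with Y15 (adjusted over all kept probes). MRPS12 (uS12m, at the decoding centre) read a change of -0.0011 by the probe used, while 1 of its 3 further probes rose by 0.99 (adjusted p = 0.000308). The other 7 were MRPL4 (0.85), MRPL11 (0.72), MRPL55 (0.58), MRPL39 (0.52), MRPS21 (0.47), MRPL10 (-0.45) and MRPS33 (-0.55), where the value is the fitted change of that further probe. These 7 are named because they passed, after their values were seen. By the probe used, the change ran the other way in MRPL4 (-0.31), MRPL11 (-0.10), MRPL55 (-0.16), MRPS21 (-0.10) and MRPL10 (0.04). It ran the same way in MRPL39 (0.35) and MRPS33 (-0.29). The remaining probes of MRPL4, MRPL11 and MRPL55 read -0.47, -0.21 and -0.04 and did not pass. The further probe of MRPL39 was detected on 3 of 8 arrays and that of MRPL10 on 4, with group means near the detection limit, so their changes are poorly measured. MRPL22 was the 1 gene with such a probe between the scrambled and untreated arrays.

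Many of these genes start close to a neighbour that runs the other way. Of the 75 genes 20 had a gene on the opposite strand whose start lay within 1000 bases in a head-to-head arrangement, and all 20 neighbours were tested. Of the 5 members that rose with Y15 and had such a neighbour, 2 had a neighbour that rose as well, and of the 2 that fell, 1 had a neighbour that fell. Of the 13 that did not pass, 2 had a neighbour that rose and 2 one that fell, beside 18.8% and 23% of all genes. MRPL18 shares its start region with TCP1, a subunit of the cytosolic chaperonin that folds actin and tubulin, 210 bases away. TCP1 read 10.50 and 10.39 untreated and 11.18 and 11.28 with Y15, a rise of 0.79 ± 0.13 (SE, adjusted p = 0.000625), beside 0.77 for MRPL18. TCP1 read 0.40 when centred on all probes and did not pass (adjusted p = 0.199). MRPL50 lies 233 bases from ZNF189, which rose by 0.45 (adjusted p = 0.031) after quantile normalisation and read -0.08 when centred on all probes (adjusted p = 0.835). MRPS27 lies 133 bases from PTCD2, a mitochondrial RNA-binding protein, which changed by -0.42 (adjusted p = 0.0493). MRPL57 lies 106 bases from SKA3, a kinetochore gene, which had a change of 0.30 with Y15 that did not pass (adjusted p = 0.137) where MRPL57 had -1.06. With HAS3 siRNA SKA3 fell (-0.76, adjusted p = 0.00799) and MRPL57 had a change of -0.59 that did not pass. Between scrambled and untreated cells 3 members with a neighbour were higher, and 0 of their neighbours were. Beside the 17 members that did not pass, 3 neighbours were higher and 1 lower, against 8.84% and 10.7% of all genes. These were TCP1 (0.67, adjusted p = 0.00511), SKA3 (0.67, adjusted p = 0.00938), NCAPD2 (0.44, adjusted p = 0.0449) and PTCD2 (-0.55, adjusted p = 0.029). Beside members that did not pass with Y15, SARS2, the neighbour of MRPS12, changed by -0.91, NCAPD2, that of MRPL51, by -0.66 and HELQ, that of MRPS18C, by 0.45, and these 3 passed. MRPL46 and MRPS11 are neighbours of each other, 320 bases apart, and MRPL46 had a change of -0.06 (adjusted p = 0.728) where MRPS11 had 0.35. The neighbours were picked by position, and the pairs named here after their values were seen.

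The start regions of these 4 members are printed to show the sequence between each gene and its neighbour. Each is the RefSeq window (GRCh38.p14) from 250 bases before to 50 bases after the start, written 5′ to 3′ on the strand of the member, with matches to the motifs below in capitals. MRPL18 lies at chr6:159789562-159789861 (plus strand, the first of 3 start windows), MRPL50 at chr9:101398569-101398868 (minus strand), MRPS27 at chr5:72320191-72320490 (minus strand) and MRPL57 at chr13:21176408-21176707 (plus strand).
MRPL18: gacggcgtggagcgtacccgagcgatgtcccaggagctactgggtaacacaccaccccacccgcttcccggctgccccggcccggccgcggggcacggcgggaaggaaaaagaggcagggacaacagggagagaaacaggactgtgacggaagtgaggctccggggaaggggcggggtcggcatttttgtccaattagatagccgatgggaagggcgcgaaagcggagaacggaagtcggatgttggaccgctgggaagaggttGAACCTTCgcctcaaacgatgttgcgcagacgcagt
MRPL50: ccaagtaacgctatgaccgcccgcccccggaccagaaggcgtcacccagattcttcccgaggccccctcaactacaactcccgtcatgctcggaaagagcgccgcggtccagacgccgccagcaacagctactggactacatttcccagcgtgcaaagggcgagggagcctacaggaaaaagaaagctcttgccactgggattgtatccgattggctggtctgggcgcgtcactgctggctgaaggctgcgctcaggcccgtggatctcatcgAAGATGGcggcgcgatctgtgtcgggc
MRPS27: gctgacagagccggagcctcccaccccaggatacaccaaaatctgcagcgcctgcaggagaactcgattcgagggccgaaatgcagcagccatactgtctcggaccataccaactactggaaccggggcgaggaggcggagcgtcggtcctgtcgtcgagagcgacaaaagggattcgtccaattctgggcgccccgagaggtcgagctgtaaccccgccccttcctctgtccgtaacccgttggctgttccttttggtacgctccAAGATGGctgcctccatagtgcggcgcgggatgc
MRPL57: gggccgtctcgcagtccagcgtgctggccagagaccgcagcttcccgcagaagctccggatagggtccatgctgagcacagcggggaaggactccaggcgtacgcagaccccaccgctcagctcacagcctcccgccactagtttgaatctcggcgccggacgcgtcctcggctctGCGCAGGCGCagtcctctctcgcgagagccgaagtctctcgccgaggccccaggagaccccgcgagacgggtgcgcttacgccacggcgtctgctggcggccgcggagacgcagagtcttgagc
The capitals are a GAANNTTC match in MRPL18, CCATNTT matches on the opposite strand in MRPL50 and MRPS27, and a match to the NRF1 motif in MRPL57. MRPL18 also has CCGGAAG and CCATNTT matches in its start windows that are not printed, and the counts below take all windows of a gene.

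Windows were found for 67 of the 75 members (83 windows, since some genes have several starts) and for 15843 genes in all, and searched on both strands, each motif by itself so that matches may overlap. CCGGAAG, the core bound by ETS factors such as GABP, was present in 30 of 67 members, 44.8%, against 16.5% of all genes and 22.1% of the tested genes with a window. CCATNTT, the core bound by YY1, was present in 32, 47.8%, against 18.6% and 20.3%. Its opposite strand, AANATGG, includes the letters of a start codon, which many of these short windows reach. The NRF1 motif was present in 9, 13.4%, against 9.67% and 13.3%, and the E-box CACGTG in 9, 13.4%, against 10.9% and 12.9%. Among members called with Y15 that have a window, CCGGAAG was in 3 of 8 that rose and 6 of 12 that fell, and CCATNTT in 4 of 8 and 7 of 12. The NRF1 motif was in 2 of 8 and 2 of 12, and CACGTG in 3 of 8 and 0 of 12. GAANNTTC, the pair of heat shock factor half-sites, was added after the results were seen. It was in 6 members, 8.96%, against 7.38% of all genes and 6.47% of the tested genes with a window. It was in the windows of MRPL18 and MRPL22 among those that rose, in 0 of 12 that fell and in 4 of 47 that did not pass. A match describes letters and is not a binding site.

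Genes whose products bind such motifs, and others that build or serve the mitochondrial ribosome, were counted in the same fits. Of 8 tested regulators of mitochondrial biogenesis 3 rose with Y15 and 0 fell, with 3 and 0 at an unadjusted p under 0.05. That is 37.5% called, against 41.8% of all genes (18.8% higher and 23% lower). With arrays centred on the median of all probes 1 rose with Y15, GABPB1, and with the detected probes 5 did. Between scrambled and untreated cells 1 was higher and 2 were lower, against 8.84% and 10.7% of all genes. GABPB1, the partner subunit of the ETS factor GABP, read 9.25 and 9.46 untreated and 10.73 and 10.44 with Y15, a rise of 1.23 ± 0.15 (SE, adjusted p = 5.2e-05). YY1 read 9.55 and 9.35 untreated and 10.27 and 10.13 with Y15, a rise of 0.76 (adjusted p = 0.00164), and PPRC1, a coactivator of the PGC-1 family, rose by 0.74 (adjusted p = 0.00189). The scrambled arrays read 9.53 and 9.56 for GABPB1 and 10.18 and 10.20 for YY1. ESRRA had a change of 0.29 with Y15 that did not pass (adjusted p = 0.219).

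Of 26 tested factors listed for assembly of the mitochondrial ribosome 1 rose and 7 fell with Y15, 30.8% against 41.8% of all genes (18.8% higher and 23% lower), with a median of -0.13. Centred on all probes 0 rose and 8 fell, and centred on detected probes 2 rose and 6 fell. RPUSD3, a mitochondrial pseudouridine synthase placed on the list of assembly factors, read 10.04 and 9.81 untreated and 8.84 and 8.81 with Y15 (-1.09 ± 0.14, SE, adjusted p = 0.000118), without overlap. GTPBP6, a GTPase of large-subunit assembly, changed by -0.72 (adjusted p = 0.00144) and TFB1M, which methylates the small ribosomal RNA, by -0.65 (adjusted p = 0.00397). MRM2, a methyltransferase of the large ribosomal RNA, rose by 0.80 (adjusted p = 0.00502). Of 16 translation factors 2 rose and 2 fell, while 0 rose and 6 fell when centred on all probes and 2 and 2 when centred on detected probes. MTRF1L, a release factor, rose by 0.69 (adjusted p = 0.00192) and SLIRP by 0.41 (adjusted p = 0.0225), while LRPPRC, its partner in keeping mitochondrial mRNAs stable, changed by -0.62 (adjusted p = 0.00333) and OXA1L, the inner-membrane insertase, by -0.63 (adjusted p = 0.0154). Of 16 genes of mitochondrial DNA transcription and upkeep 4 rose and 2 fell (0 and 4, and 5 and 1, with the same centrings), led by SUPV3L1, an RNA helicase (0.70, adjusted p = 0.00293), and POLG, the mitochondrial DNA polymerase (0.62, adjusted p = 0.00411). Of the 3 tested mitochondrial ribosomal proteins under other names CHCHD1 fell (-0.40, adjusted p = 0.0264) and DAP3 and PTCD3 did not pass.

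With HAS3 siRNA, 3 translation factors of 16 and 1 assembly factor of 26 were lower and 0 of either list were higher by limma, beside 4.74% lower and 3.47% higher over all genes. Centred on all probes none of these 4 passed, with adjusted p from 0.218 for MTRF1 to 0.582 for NSUN4, and centred on detected probes NSUN4 did not pass (adjusted p = 0.101). At an unadjusted p under 0.05 the translation factors had 3 higher and 4 lower and the assembly factors 1 and 3. These 4 genes are named after their values were seen. MTRF1 changed by -0.71 (adjusted p = 0.00645), MTRF1L by -0.65 (adjusted p = 0.0124), MTIF3, an initiation factor, by -0.63 (adjusted p = 0.00966) and NSUN4, which acts on the small ribosomal RNA and in joining the subunits, by -0.53 (adjusted p = 0.0357). After quantile normalisation MTRF1L was called higher with Y15 and lower with HAS3 siRNA, a difference of 1.34 (adjusted p = 0.00046). Centred on all probes it read 0.27 and -0.46, neither of which passed, and a difference of 0.73 (adjusted p = 0.129).

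The cytosolic ribosome and the oxidative phosphorylation subunits were counted beside the mitochondrial ribosome. With Y15 the 72 tested cytosolic ribosomal protein genes had 11 rises and 4 falls, 20.8%, with a median of 0.12, beside 41.8% of all genes. The 66 tested nuclear genes for oxidative phosphorylation subunits had 4 rises and 18 falls, 33.3%, with a median of -0.19. After quantile normalisation the mitochondrial ribosomal proteins, with 9 rises and 14 falls and a median of 0.0001, lay between these, and no difference among the 3 sets was tested. Scaling moved all 3 sets: centred on all probes the cytosolic set had 0 rises and 6 falls and the oxidative phosphorylation set 0 and 21, and centred on detected probes 51 and 1, and 10 and 7. Relative to the median of all genes, the median of the cytosolic set was 0.15 after quantile normalisation and 0.53 after either centring, that of the oxidative phosphorylation set was -0.16 and -0.09, and that of the mitochondrial ribosomal proteins turned from 0.03 to -0.09. With HAS3 siRNA the counts were 0 rises and 3 falls for the cytosolic set and 0 and 0 for the oxidative phosphorylation set by limma. The 3 falls are 4.17% of the cytosolic set, beside 3.47% higher and 4.74% lower over all genes. At an unadjusted p under 0.05 the counts were 1 and 6, and 4 and 4. Between scrambled and untreated cells they were 5 and 3, and 6 and 2, beside 8.84% higher and 10.7% lower over all genes. Centred on all probes they were 1 and 1, and 0 and 1, and centred on detected probes 5 and 1, and 11 and 0.

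**Figure D5:**
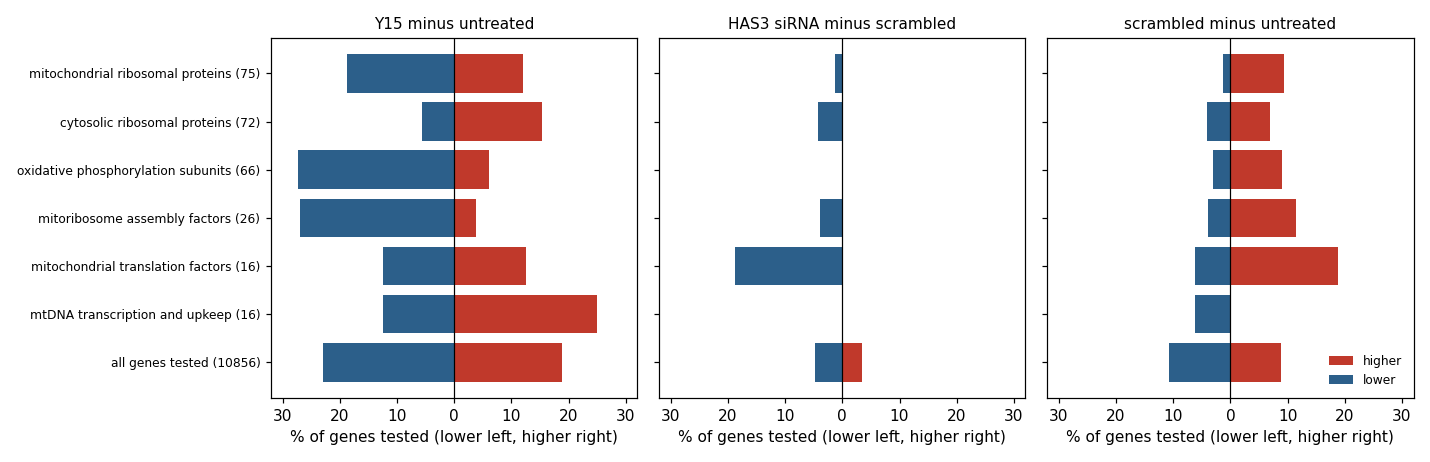
Share of the tested genes of each list called higher (right, red) or lower (left, blue) at adjusted p under 0.05, in percent, for 3 comparisons, with the number of genes tested in brackets. With Y15, after quantile normalisation, the mitochondrial ribosomal proteins show 12% higher and 18.7% lower, beside 18.8% and 23% of all genes, and in the HAS3 siRNA panel their bar is 1.33% lower with none higher.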

How the data were processed

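Total RNA of SW620 cells was labelled as biotin cRNA and hybridised to Illumina bead arrays, per the labels' protocols. The deposited table gives, per the file headers, a linear bead intensity and a detection p-value for each of 24526 probes. The submitters' processing notes name GenomeStudio, whose version is not given in the sources used here. As log2 values, the deposited series matrix equals the quantile-normalised intensities without background correction to within 5e-09, with an array median of 5.86. Its genes were not centred, and it served as an alternative.

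Background was corrected with limma 3.58.1 (nec from detection p-values, offset 16; R 4.3.3), followed by log2 and quantile normalisation between arrays. Of all probes, 14631 were kept at a detection p under 0.05 on at least 2 arrays, 13239 of them named. Symbols came from the platform annotation, updated by gene identifier with RefSeq (GRCh38.p14). The probe of highest mean stood for each of 10856 genes. All 8 arrays entered 1 fit of the 4 group means (lmFit, eBayes, 11.8 total degrees of freedom), tests are two-sided, and p-values were adjusted by Benjamini-Hochberg over all genes of a comparison. All adjusted p-values are from limma. The number of arrays, 2 per group, limits the precision. The fit was tested on simulated data.

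Members called in each comparison were named by a rule: up to 8 largest rises and 8 largest falls without overlap, paralogs, stalk proteins and members with roles outside the core, and up to 4 genes of smallest p with Y15 per list. The remaining called members are named as well. The members and lists were chosen with earlier results of these data known. The alternatives changed the background correction (none, or offset 50), the scaling (median centring, over all or over kept probes, the latter added after the data were seen; cyclic loess; the values of the series matrix), the detection filter (none, or p under 0.01 on every array), the probe (their mean) and the fit (each comparison by itself, a replicate block, array weights, and each array left out). Promoter windows and neighbours came from RefSeq.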

Additional observations from a re-analysis of the deposited data

How the results depend on the processing

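Array number 1 or 2 is shared by the labels of all groups, but nothing ties equal numbers to a shared culture, and the deviations of equally numbered arrays correlated at r = -0.07 to 0.27 across genes. With the number as a replicate block the calls among members were 9 higher and 14 lower with Y15, 0 and 2 with HAS3 siRNA, 8 and 1 for scrambled against untreated, and 7 and 11 for the difference of the Y15 and HAS3 siRNA changes. With Y15 the block ended the call of MRPS11 (adjusted p = 0.0501) and added MRPL48 (0.38, adjusted p = 0.0468).

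Of the 23 calls with Y15, 6 were kept under every alternative. With median centring, members higher and lower were 0 and 24 with Y15, 0 and 0 with HAS3 siRNA, 0 and 1 for scrambled against untreated, and 0 and 22 for the difference. With median centring on the kept probes they were 12 and 11, 0 and 0, 5 and 0, and 9 and 3. Of all 10856 genes, those higher and lower with median centring were 501 and 3429, 202 and 121, 123 and 932, and 339 and 3035. On the kept probes they were 2901 and 1635, 171 and 355, 859 and 549, and 2380 and 1036. Among all called genes the share higher under quantile normalisation, median centring and centring on the kept probes was 42.3%, 62.5% and 32.5% with HAS3 siRNA, 45.3%, 11.7% and 61.0% for scrambled against untreated, and 44.7%, 10% and 69.7% for the difference. The median of all genes then shifted to -0.15 and 0.15 for scrambled against untreated, 0.13 and -0.08 with HAS3 siRNA, and -0.46 and 0.26 for the difference. MRPS11, 0.35 with Y15, read -0.0365 under median centring (adjusted p = 0.924).

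Fitting each comparison by itself gave 5 higher with Y15 and offset 50 gave 14. Members lower with HAS3 siRNA were 2 with array weights, cyclic loess, the strict detection filter, no background correction, the series matrix or the replicate block, and 3 in the fit of that comparison by itself. Members lower in scrambled against untreated cells were 3 with array weights, the strict filter, the comparison alone, no background correction, offset 50 or the series matrix, and 2 with the mean of probes. The large minus small subunit median changed from 0.13 to 0.0690 with Y15 and from 0.12 to 0.16 for scrambled against untreated with the mean of probes. The cause of these shifts was not tested.

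When each array was left out in turn, members higher and lower ranged over 4 to 9 and 8 to 12 with Y15, 0 to 0 and 0 to 0 with HAS3 siRNA, 0 to 6 and 0 to 1 for scrambled against untreated, and 1 to 8 and 1 to 12 for the difference. The large minus small subunit median ranged from 0.0512 to 0.19 with Y15, -0.0420 to 0.0440 with HAS3 siRNA, 0.11 to 0.20 for scrambled against untreated and 0.0469 to 0.24 for the difference. Leaving out an array leaves 1 array in its group, which is then assumed to vary like the others.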
